A study of Mus musculus with 13 samples.

Results

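Igf1, its receptor gene Igf1r and 6 IGF-binding protein genes (Igfbp2, Igfbp3, Igfbp4, Igfbp5, Igfbp6 and Igfbp7) were followed by gene symbol through an RNA-seq table of mesenchymal stromal cells (MSCs) of mouse bone marrow. They were 8 of the 33433 gene entries of the table, and all 8 passed the filter on low values. The 13 libraries, all from mice of the C57BL/6 strain, were 3 from healthy mice, 6 from pre-leukemic mice and 4 called recovered, the name that matches the protocol's pre-leukemic mice given MSCs. The cells had been sorted out of nucleated cells taken from marrow and compact bone. The sources used here do not give the surface markers of the sort, the genotype of the leukemia model, the ages of the mice or whether replicates were separate animals. The p-values therefore cover only the spread among these libraries, which may be technical. Levels are in FPKM, a count of fragments divided by gene length and by library depth. Changes are differences of log2(FPKM + 1) ± SE from limma, a linear model fitted to all genes, and these understate changes of genes with low values.

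IGF1 is a small secreted growth factor that acts through the receptor tyrosine kinase encoded by Igf1r and, from there, through insulin receptor substrates and the PI3K and AKT kinases. The classical binding proteins IGFBP2 to IGFBP6 are secreted proteins that hold IGFs outside the cell and set how much of them can reach the receptor, and proteases release the ligand by cutting them. IGFBP6 prefers IGF2 over IGF1, and IGFBP7 binds IGFs weakly and is often grouped with the family as a related protein. In bone, stromal and osteoblast-lineage cells are sources of IGFs and of several binding proteins, and macrophages also make IGF1.

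The 4 promoter windows below are shown because their genes carry the main patterns. Igfbp2 and Igfbp5 are neighbours at different levels in every group, with means of 15.9 and 337.4 FPKM in healthy samples. Of the 2, only Igfbp2 was called lower in recovered than in healthy samples. Igfbp6 and Igfbp7 were the most abundant members in healthy and recovered samples. All 8 genes matched the RefSeq promoter table of GRCm38.p6. Each window is the 250 bases before an annotated start, 5′ to 3′ on the gene's strand, with matches on either strand to the TATA box (TATAAA), the GC box (GGGCGG) and the CCAAT box (CCAAT) in capitals, none of which overlapped.
Igfbp2, chr1:72824230-72824479 (plus strand): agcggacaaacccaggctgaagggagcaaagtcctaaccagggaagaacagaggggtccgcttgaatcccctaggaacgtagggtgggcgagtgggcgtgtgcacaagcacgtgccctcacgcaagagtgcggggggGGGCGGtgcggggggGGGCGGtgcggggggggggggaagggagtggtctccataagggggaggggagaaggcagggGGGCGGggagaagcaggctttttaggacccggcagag
Igfbp5, chr1:72874866-72875115 (minus strand): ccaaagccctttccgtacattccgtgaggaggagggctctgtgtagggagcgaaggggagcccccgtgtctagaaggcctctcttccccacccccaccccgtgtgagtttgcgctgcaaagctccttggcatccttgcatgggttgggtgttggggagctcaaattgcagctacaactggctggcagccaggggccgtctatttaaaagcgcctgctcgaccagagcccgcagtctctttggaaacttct
Igfbp6, chr15:102143936-102144185 (plus strand): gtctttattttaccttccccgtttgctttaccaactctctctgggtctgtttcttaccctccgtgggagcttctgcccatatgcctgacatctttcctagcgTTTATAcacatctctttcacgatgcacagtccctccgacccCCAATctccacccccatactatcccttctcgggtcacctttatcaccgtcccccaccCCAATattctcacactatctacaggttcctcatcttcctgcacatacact
Igfbp7, chr5:77408046-77408295 (minus strand): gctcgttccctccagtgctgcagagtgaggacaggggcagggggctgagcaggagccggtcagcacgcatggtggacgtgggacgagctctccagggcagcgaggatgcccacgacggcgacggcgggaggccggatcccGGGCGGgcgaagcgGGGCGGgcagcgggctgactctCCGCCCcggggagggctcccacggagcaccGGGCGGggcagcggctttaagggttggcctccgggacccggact
The table holds a second Igfbp2 window, farther into the gene, with 56.4% GC and none of the 3 motifs. The Igfbp7 window held 4 GC boxes and the Igfbp2 window shown 3, while the Igfbp5 window held none of the 3 motifs. The Igfbp6 window held 2 CCAAT boxes and 1 TATA box, the latter on the reverse strand. Of all 32851 windows of the same length, 32.7% held a GC box, 33.8% a CCAAT box and 12.4% a TATA box. GC content was 74.0% for Igfbp7, 67.2% for the Igfbp2 window shown, 58.8% for Igfbp5 and 49.6% for Igfbp6, against a median of 52.4% over all windows. These matches describe the letters and are not evidence of binding.

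Igfbp2 (chromosome 1, 72824503 to 72852474, plus strand, GRCm38) and Igfbp5 (chromosome 1, 72857932 to 72874884, minus strand) lie tail to tail with 5457 bp between their ends. Igfbp6 lies on chromosome 15 (102144362 to 102149511) and Igfbp7 on chromosome 5 (77349240 to 77408041). Igfbp3 (7206086 to 7213923) and Igfbp4 (99041244 to 99054392) are far apart on chromosome 11. Igf1 lies on chromosome 10 (87858265 to 87937042) and Igf1r on chromosome 7 (67952827 to 68233668). An antisense gene, Igf1os, overlaps Igf1 by 5117 bp and was listed above 0 only in recovered 1, at 4.18 FPKM. Strand was not stated for the counting, so reads of Igf1 and Igf1os cannot be told apart there.

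Several libraries stood apart from their labels or from each other. Healthy 1 and 3 differed by no more than about sampling noise, with a chi-square per gene of 1.21 over 212 genes (p = 0.0213) against at least 22.0 in the other 23 pairs of the same group, and were averaged into 1 sample. For the pre-leukemic libraries 1 read on 1 kb was worth 0.165 to 0.241 FPKM, for the healthy ones 0.314 to 0.384 and for the recovered ones 0.349 to 0.642. The libraries labelled pre-leukemic MSC had lower signal for the label. The 12 mesenchymal stromal markers summed to 88.7 to 217.6 FPKM there, against 798.1 to 1029 in healthy and 839.6 to 1246 in recovered libraries. Cxcl12 alone was at 369 to 508 FPKM in healthy and 6.75 to 123.6 in pre-leukemic libraries. Of these markers 8 were called lower in pre-leukemic than in healthy samples, against 13.1% of all genes. Ebf3, Thy1, Eng and Nt5e were not called (limma adjusted p = 0.250, 0.283, 0.838 and 0.0894). Thy1 was at 39.9 to 70.9 FPKM in pre-leukemic and 66.1 to 81.5 in healthy libraries. The 10 pan-leukocyte markers summed to 2657 to 3341 FPKM in pre-leukemic, 120.3 to 161.7 in healthy and 75.2 to 237.9 in recovered libraries, and immunoglobulin genes held 54.9 to 80.5% of all pre-leukemic FPKM and at most 0.134% elsewhere. Of 12 monocyte and macrophage markers 11 were in the table. They summed to 3410 to 5163, 19.1 to 23.6 and 16.2 to 62.8 FPKM in pre-leukemic, healthy and recovered libraries. Ly6c2 alone was at 2135 to 3728 FPKM in the pre-leukemic libraries. C1qa, C1qb, C1qc and Ccr2 were at 0 in healthy libraries, but C1qa and C1qc were also at 0 in pre-leukemic 3 to 5. Of the 9 tested, 5 were called higher in pre-leukemic than in healthy samples. The other 4, Csf1r, Cd68, C1qa and C1qb, were not called (limma adjusted p = 0.726, 0.0731, 0.359 and 0.196). Neutrophil markers summed to 3054 to 12900, 54.63 to 89.02 and 15.42 to 561.2 FPKM in pre-leukemic, healthy and recovered libraries. Of these 7 markers 5 were called higher in pre-leukemic than in healthy samples, against 14.2% of all genes. Mpo and Elane were not (limma adjusted p = 0.670 and 0.967). They were at 30.14 to 44.75 and 24.49 to 34.78 FPKM in healthy libraries, and at 0 to 199.8 and 0 to 398.3 in pre-leukemic ones. Osteoblast markers summed to 79.7 to 124.7 FPKM in pre-leukemic libraries, with Bglap, Sp7 and Dmp1 at 0. The sums were 6331 to 7824 in healthy and 1954 to 2497 in recovered libraries. Of these 10 markers 9 were called lower in pre-leukemic than in healthy samples, against 13.1% of all genes. Runx2 was not (change 0.14, limma adjusted p = 0.879), at 15.2 to 49.3 FPKM in pre-leukemic and 13.1 to 33.3 in healthy libraries. It was called lower in recovered than in pre-leukemic samples (change -2.28, limma adjusted p = 0.000885). Erythroid markers were at 1650 to 2638 FPKM in recovered and at most 46.1 in the other libraries. These shifts moved with the groups, so their part in the member results below cannot be told apart from the condition, and fewer cells of a type cannot be told apart from less RNA per cell.

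In healthy samples 5 of the 6 binding proteins exceeded the ligand, and all 6 the receptor. Igfbp6 was at 1674, 1563 and 1658 FPKM in healthy 1 to 3, the 54th highest of 14158 entries above 0, and Igfbp7 followed at 1404, 1471 and 1389 FPKM, the 69th. Igfbp5 was at 322, 348 and 332 FPKM, Igfbp4 at 99.5, 121 and 100.1, and Igfbp3 at 94.1, 98.5 and 92.3. Igf1 was at 28.2, 35.1 and 31.7 FPKM and Igfbp2 at 17.8, 14.3 and 17.1. Igf1r was lowest, at 0.963, 0 and 1.81 FPKM. The order Igfbp6, Igfbp7, Igfbp5, Igfbp4, Igfbp3, Igf1, Igfbp2, Igf1r held in each of the 3 libraries, and no neighbours in it overlapped in range.

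**Figure D1:**
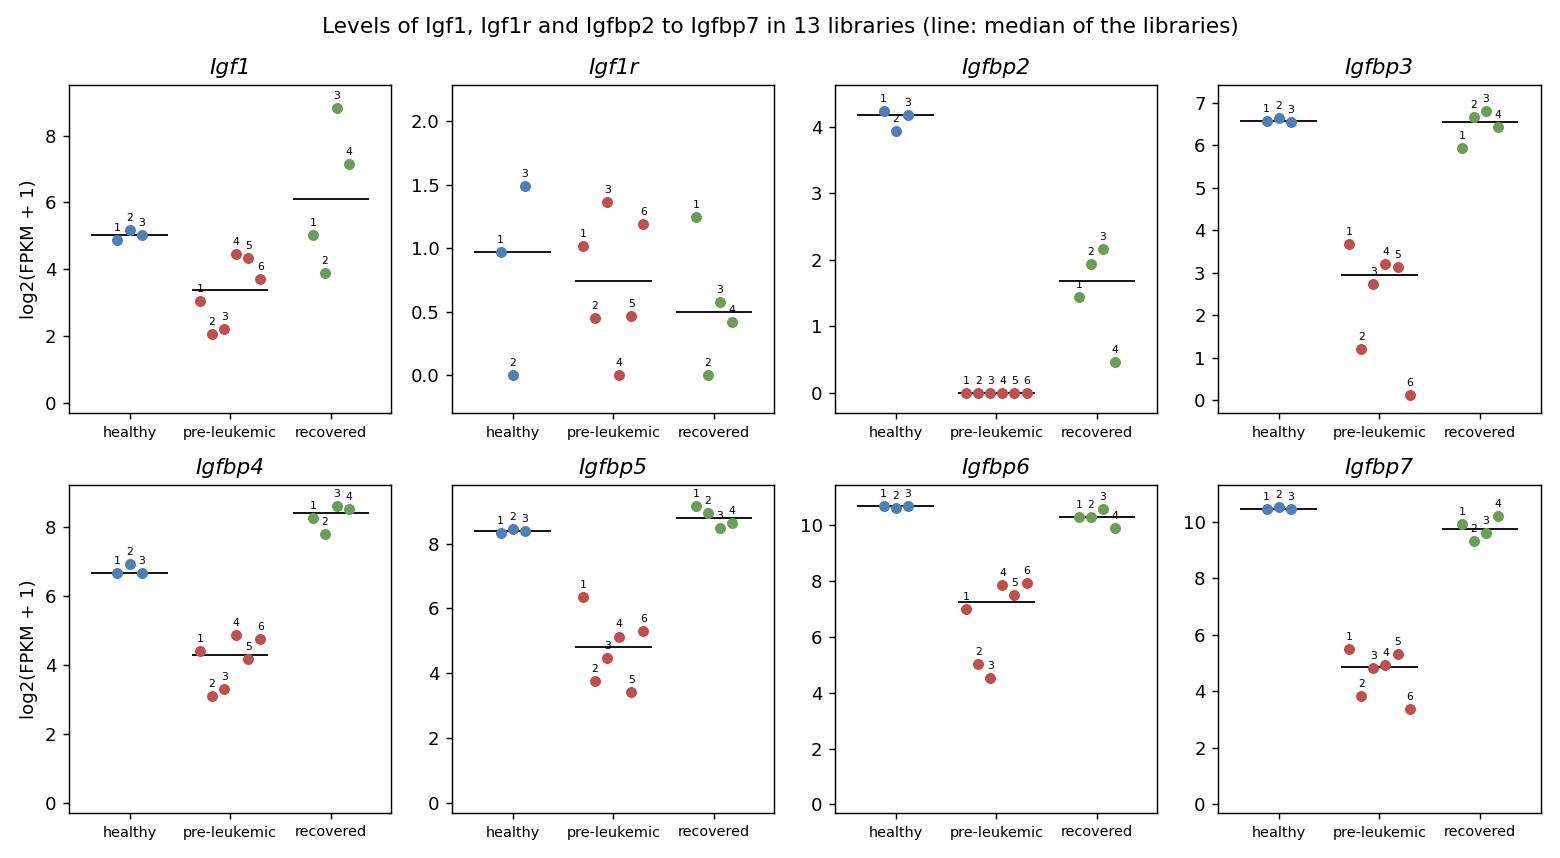
Levels of the 8 genes as log2(FPKM + 1), 1 panel per gene, with a numbered point for each of the 13 libraries by group and a line at the group's median. The binding proteins other than Igfbp2 sit lower in every pre-leukemic library than in any healthy or recovered one, Igfbp2 is at 0 in all 6 pre-leukemic libraries, and Igf1r is at 0 to 1.81 FPKM in all 13.

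Pre-leukemic samples were lower than healthy ones for every binding protein. The 6 Igfbp genes fell, with changes of -2.71 to -5.86, while Igf1 and Igf1r did not pass the test. Of the 8 members 6 were called lower and 0 higher at a limma adjusted p under 0.05 (0 higher also unadjusted), where 13.1% of the 13118 genes tested were called lower and 14.2% higher. The median change of the members was -3.83, against 0.197 over all genes.

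Igfbp7 had the largest change of the members detected in both groups. Its 6 pre-leukemic libraries ran from 9.36 to 44.1 FPKM with a median of 28.3, against 1434 ± 52.9 FPKM (SD, n = 2) in healthy samples. Every pre-leukemic library lay below every healthy one, and the means differed 53.0-fold (change -5.86 ± 0.49, limma adjusted p = 1.67e-06). Igfbp6, the most abundant in both groups, ran from 22.2 to 244 FPKM with a median of 153.5, an 11.5-fold lower mean (change -4.01 ± 0.75, limma adjusted p = 0.00119). Its libraries did not overlap those of healthy samples either.

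Igfbp3, the main IGF carrier of blood, was at 0.0996 to 11.9 FPKM in the pre-leukemic libraries, median 6.73, a 16.4-fold lower mean than in healthy samples (change -4.24 ± 0.77, limma adjusted p = 0.000941). Igfbp5, which binds to bone matrix, ran from 9.66 to 81.5 FPKM with a median of 27.6, 10.2-fold lower (change -3.66 ± 0.60, limma adjusted p = 0.000405). Igfbp4, which mostly inhibits IGF action, ran from 7.53 to 27.7 FPKM with a median of 18.3, 6.22-fold lower (change -2.71 ± 0.48, limma adjusted p = 0.000786), the smallest change of a binding protein that was detected there. None of these 3 genes overlapped between the groups. Igfbp2 was listed at 0 in all 6 pre-leukemic libraries, so no fold is given (limma adjusted p = 2.36e-05), and the size of its change depends on the pseudocount. A value of 0 in this table can be a failed estimate.

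Igf1, the ligand, was at 3.18 to 21.05 FPKM in the pre-leukemic libraries, median 9.66, against 32.5 ± 3.66 FPKM (SD, n = 2) in healthy samples. The ranges did not overlap and the mean was 2.94-fold lower, but the change of -1.76 ± 1.03 did not pass (limma adjusted p = 0.223). On a scale that makes all libraries sum to the same total (TPM) it passed, at -3.26 and an adjusted p of 0.0139, and its adjusted p ran from 0.0139 to 0.542 over 22 alternatives. That scale moved the median of all genes from 0.197 to -1.08 and the share of calls that were higher from 51.9 to 15.8%. Igf1r, the receptor, was at 1.02, 0.369, 1.58, 0, 0.379 and 1.28 FPKM in pre-leukemic 1 to 6, within the healthy spread, and its change of 0.12 ± 0.50 did not pass (limma adjusted p = 0.882). The sign of that change turned under other scalings, so no direction is given for Igf1r. Libraries of 7 members were entirely below the healthy ones, against 20.6% of all genes tested.

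**Figure D2:**
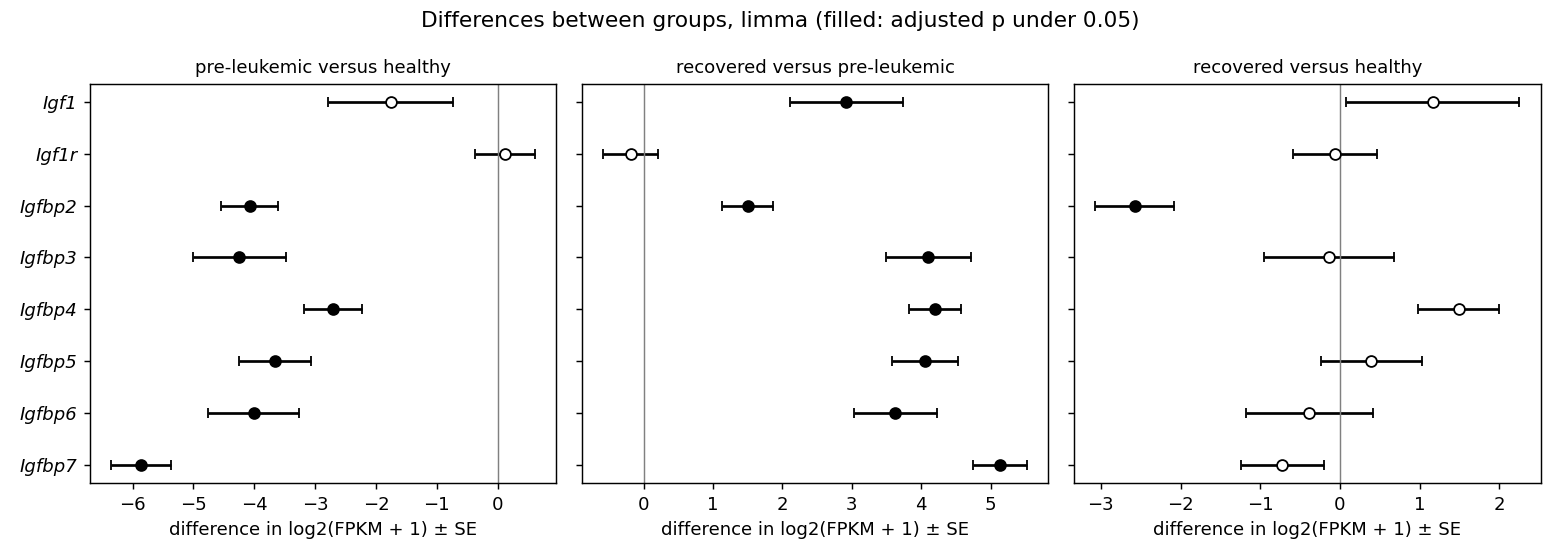
Log2 change (log2(FPKM + 1) scale) of each of the 8 genes with bars of 1 SE, for pre-leukemic against healthy, recovered against pre-leukemic and recovered against healthy samples, with filled points for an adjusted p under 0.05. The first 2 comparisons share the pre-leukemic samples, and in the third only Igfbp2, at -2.57, is called.

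Recovered samples were higher than pre-leukemic ones for 7 of the 8 members. Igf1 and all 6 Igfbp genes rose, and Igf1r did not pass. Against 7 called higher and 0 lower among the members (0 lower also at an unadjusted p under 0.05), 14.8% of genes tested were called higher and 25.1% lower. The median change was 3.84, against -0.405 over all genes. Both comparisons use the pre-leukemic libraries, so a low level there enters both, and the values are given side by side for that reason.

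Igfbp7 was at 976, 632, 772 and 1193 FPKM in recovered 1 to 4, a 33.0-fold higher mean than in pre-leukemic samples (change 5.14 ± 0.39, limma adjusted p = 2.43e-07). Igfbp4 was at 302, 219, 383 and 366 FPKM, 17.9-fold higher (change 4.20 ± 0.38, limma adjusted p = 1.21e-06). Igfbp3 was at 60.0, 101, 111 and 85.2 FPKM, 15.3-fold higher (change 4.10 ± 0.61, limma adjusted p = 0.000105). In all 3 cases the lowest recovered library was above the highest pre-leukemic one. Igfbp5 was at 567.5, 493.8, 353 and 392 FPKM, 13.7-fold higher (change 4.05 ± 0.47, limma adjusted p = 1.19e-05). Igfbp6 was at 1266, 1245, 1541 and 966 FPKM, 8.97-fold higher (change 3.63 ± 0.59, limma adjusted p = 0.000248). Both also had no overlap. Igfbp2 was at 1.71, 2.82, 3.46 and 0.378 FPKM, above the value of 0 listed in every pre-leukemic library (limma adjusted p = 0.00527). The 6 Igfbp genes were the members without overlap, against 10.7% of all genes that lay higher without overlap.

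Igf1 was at 31.9, 13.9, 449 and 142 FPKM in recovered 1 to 4, so recovered 2 lay within the pre-leukemic range and recovered 3 far above all other libraries. Its mean was 14.4-fold higher than in pre-leukemic samples (change 2.92 ± 0.81, limma adjusted p = 0.0108). Without recovered 3 the recovered mean was 62.7 ± 69.7 instead of 159 ± 201 FPKM (SD), and the change was 2.06 with an adjusted p of 0.035. Over all alternatives that adjusted p ran from 0.000349 to 0.0356. Recovered 3 also had the largest value of 1 read among the libraries, an endothelial marker sum of 149.9 FPKM against 3.10 to 22.9 in the other recovered libraries (8 markers, Emcn alone at 140.2), and the lowest monocyte and macrophage sum of the recovered libraries, 16.2 FPKM. The part of these in the Igf1 value was not tested. Igf1r was at 1.38, 0, 0.491 and 0.339 FPKM and did not pass (change -0.19 ± 0.39, limma adjusted p = 0.735). For this comparison the TPM scale moved the median of all genes from -0.405 to 0.582, and the share of calls that were higher from 37.1 to 75.6%, with 50.4% under quantile normalization.

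Recovered and healthy samples differed in 1 member by the test. Igfbp2 fell, from 15.9 ± 2.23 FPKM (SD, n = 2) in healthy to 2.09 ± 1.35 (SD, n = 4) in recovered samples, 7.59-fold lower (change -2.57 ± 0.50, limma adjusted p = 0.0150). Its 4 recovered libraries, at 0.378 to 3.46 FPKM, lay below all healthy ones. The 8 chondrocyte markers summed to 3177 to 3219 FPKM in healthy libraries, 620.9 to 979.1 in recovered ones and 1.75 to 6.73 in pre-leukemic ones, where Acan, Col2a1, Ucma, Matn3 and Hapln1 were at 0, and 2 of the 7 tested, Col2a1 and Ucma, were also called lower in recovered than in healthy samples. The other 5 tested were not called, among them Sox9 and Acan, at changes of 0.11 and 0.03. Chad, also not called (limma adjusted p = 0.0529), was at 2426 to 2459 FPKM in healthy and 298.9 to 586.0 in recovered libraries. Ucma and Matn3 were at 0 in recovered libraries, but Matn3 was at only 0.307 to 0.745 FPKM in healthy ones. The part of these markers in the Igfbp2 value was not tested. Among all genes tested, 1.99% were called lower and 0.518% higher. The call was lost under quantile normalization (adjusted p = 0.0603), with a pseudocount of 0.1 (0.107), with only the 2 groups compared (0.303) and without healthy 2 (0.0734), which leaves 1 healthy sample assumed to vary like the other groups, within a range of 0.00271 to 0.303. Quantile normalization moved the share of calls that were higher from 20.7 to 31.3%, and the TPM scale moved it to 10.7% and the median of all genes from -0.0783 to -0.258.

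Igfbp4 lay above every healthy library in all 4 recovered ones, at a mean of 317.3 ± 74.3 FPKM (SD, n = 4) against 110.2 ± 14.8 (SD, n = 2), 2.88-fold higher. The change of 1.49 ± 0.51 did not pass (limma adjusted p = 0.151, unadjusted 0.0110). It passed only when healthy 1 and 3 were taken as separate libraries (adjusted p = 0.0472), and its adjusted p ran from 0.0472 to 0.499 over 22 alternatives. Igfbp7 and Igfbp6 lay below every healthy library, at 893.1 ± 245 and 1255 ± 235 FPKM, and Igfbp5 above, at 451.8 ± 97.2. Their changes were -0.72 ± 0.52, -0.38 ± 0.80 and 0.40 ± 0.63, with limma adjusted p of 0.551, 0.889 and 0.833. Of the members 3 lay lower and 2 higher without overlap, against 10.7% and 6.64% of all genes. Igfbp3 was at 89.1 ± 22.0 FPKM against 95.9 ± 3.73, with a change of -0.14 ± 0.82 that turned to 0.0358 without recovered 1. Igf1 overlapped (change 1.16 ± 1.09, limma adjusted p = 0.671), as did Igf1r, at a change of -0.07 ± 0.53. The median change of the members was -0.103, against -0.0783 over all genes.

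The order of the genes by level was also set out for the other 2 groups. In recovered libraries Igfbp6 came first in 3 of 4, with its range overlapping that of Igfbp7, and Igfbp5 lay below Igfbp7 without overlap, in all 4. Igfbp4 and Igfbp5 overlapped, as did Igf1 and both of its neighbours. In pre-leukemic libraries the order of the medians was Igfbp6, Igfbp7, Igfbp5, Igfbp4, Igf1, Igfbp3, Igf1r and Igfbp2. Every pair of neighbours in the order by mean overlapped there. Igfbp6 lay above Igfbp5 in 6 of 6 libraries, but below Igfbp7 in pre-leukemic 3 (22.2 against 27.3 FPKM).

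The binding proteins were then taken as shares of their own sum, which does not depend on how the library was scaled. That sum was 66.4 to 333.3 FPKM in the pre-leukemic libraries, against 3588 to 3616 in the healthy and 2693 to 3173 in the recovered ones. Igfbp7 held 38.7 to 40.7% of it in the healthy libraries, 2.94 to 32.1% in the pre-leukemic and 23.5 to 39.7% in the recovered ones. Igfbp4 held 2.75 to 3.34%, 6.57 to 11.3% and 8.12 to 12.2% in the same order. Both therefore had no overlap between healthy and pre-leukemic libraries, and Igfbp4 had none between healthy and recovered, nor had Igfbp5 (11.2 to 18.3% in recovered) and Igfbp2. Igfbp6 held 43.2 to 46.4% in healthy and 26.1 to 76.8% in pre-leukemic libraries, and Igfbp5 8.91 to 9.62% and 3.80 to 28.8%. After adjustment over 18 exact permutation tests (two-sided) 0 passed, and 2 were under 0.05 unadjusted, those of Igfbp2 and Igfbp7 in recovered against pre-leukemic samples. The share of Igfbp7 was 15.8 ± 9.98% (SD, n = 6) in pre-leukemic and 29.6 ± 7.50% (SD, n = 4) in recovered samples (exact permutation p = 0.0476, adjusted 0.257). For Igfbp4 and Igfbp7 in pre-leukemic against healthy samples the exact p was 0.0714, the smallest the design allows, and for recovered against healthy samples the smallest is 0.133. Neither of these comparisons could pass at 0.05. For recovered against pre-leukemic samples the smallest exact permutation p is 0.00952, which Igfbp2 reached (adjusted 0.171). The lack of calls therefore does not show that the shares were alike. In each library the shares add to 100%, so one cannot rise without another falling.

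**Figure D3:**
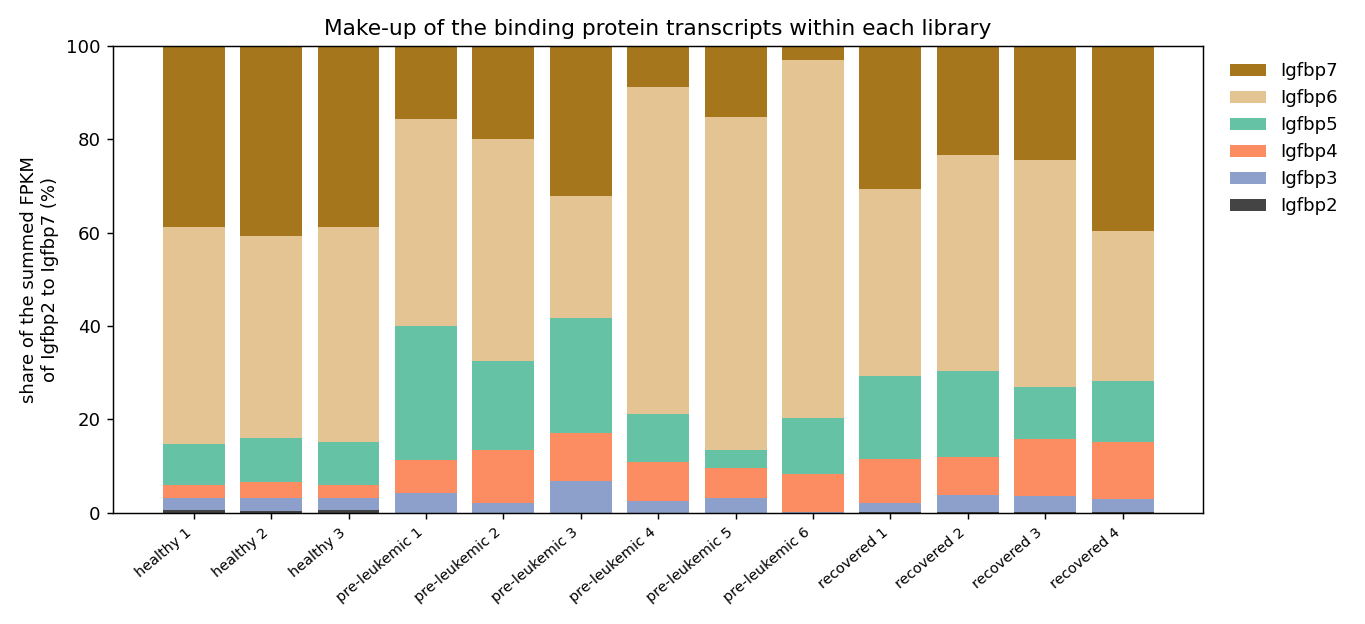
Share of each of the 6 binding proteins in their summed FPKM, in percent, as stacked bars for each of the 13 libraries. Igfbp6 and Igfbp7 make up most of the healthy bars, and Igfbp4 takes 2.75 to 3.34% of them against 8.12 to 12.2% of the recovered ones.

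The ligand was low beside its binding proteins. Igf1 was 0.782 to 0.971% of the summed FPKM of the 6 binding proteins in healthy libraries, 2.55 to 7.51% in pre-leukemic ones and 1.004, 0.515, 14.2 and 4.75% in recovered 1 to 4. Every pre-leukemic library was above every healthy one, and the recovered libraries spread over both ranges and beyond. FPKM is scaled per length, so these are ratios of transcript levels and do not measure protein. Igf2, the related ligand, was 6.41 to 8.35 times the level of Igf1 in the healthy libraries, 0 to 0.444 times in the pre-leukemic ones and 10.3, 8.92, 0.269 and 2.23 times in recovered 1 to 4, so Igf1 exceeded Igf2 in the pre-leukemic libraries and in recovered 3.

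**Figure D4:**
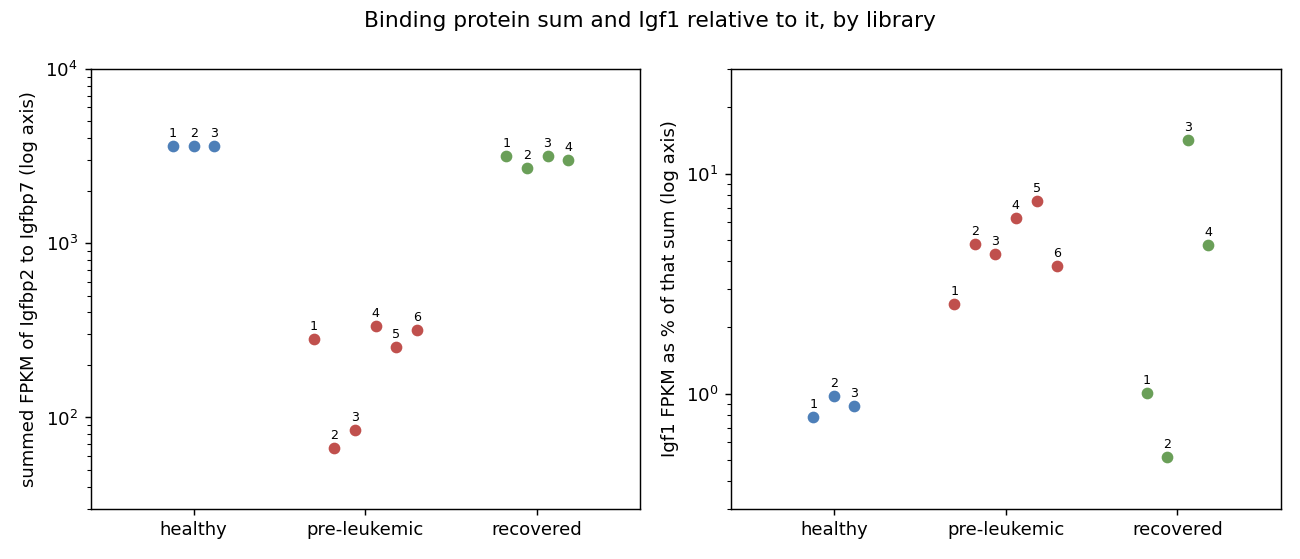
Left, the summed FPKM of the 6 binding proteins in each library, and right, Igf1 as a percentage of that sum, both on log scales. The sums are 66.4 to 333.3 FPKM in the pre-leukemic libraries and at least 2693 in the others, and the Igf1 percentage is highest in recovered 3, at 14.2%.

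Within the pre-leukemic group the order of the libraries differed between members, and no test of this was made. Igf1 was at 7.22, 3.18, 3.67, 21.05, 19.1 and 12.1 FPKM in pre-leukemic 1 to 6. Igfbp6 was at 126, 31.7, 22.2, 234, 181 and 244 FPKM in the same order, and Igfbp4 at 19.8, 7.53, 8.73, 27.7, 16.7 and 25.8. Libraries 2 and 3 were the lowest for all 3 genes. Igfbp7 was at 44.1, 13.2, 27.3, 29.3, 38.9 and 9.36 FPKM, Igfbp3 at 11.9, 1.32, 5.72, 8.26, 7.75 and 0.0996, and Igfbp5 at 81.5, 12.7, 21.04, 34.2, 9.66 and 38.7. Library 1 was the highest for these 3 genes, and library 2 ranked 5th of 6 for each. Library 6 was the lowest for Igfbp3 and Igfbp7 but ranked 2nd for Igfbp5, for which library 5 was the lowest. The summed mesenchymal stromal markers were at 217.6, 88.7, 118.4, 147.9, 172.4 and 121.4 FPKM. That sum was highest in library 1, as were Igfbp3, Igfbp5 and Igfbp7. Its lowest value was in library 2, which was the lowest for none of these 3 genes. In library 1 Cxcl12 alone was at 123.6 FPKM, against 6.75 to 47.6 in the other pre-leukemic libraries. The summed monocyte and macrophage markers were at 4038, 4838, 4335, 4747, 3410 and 5163 FPKM, and their part in these values was not tested.

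**Figure D5:**
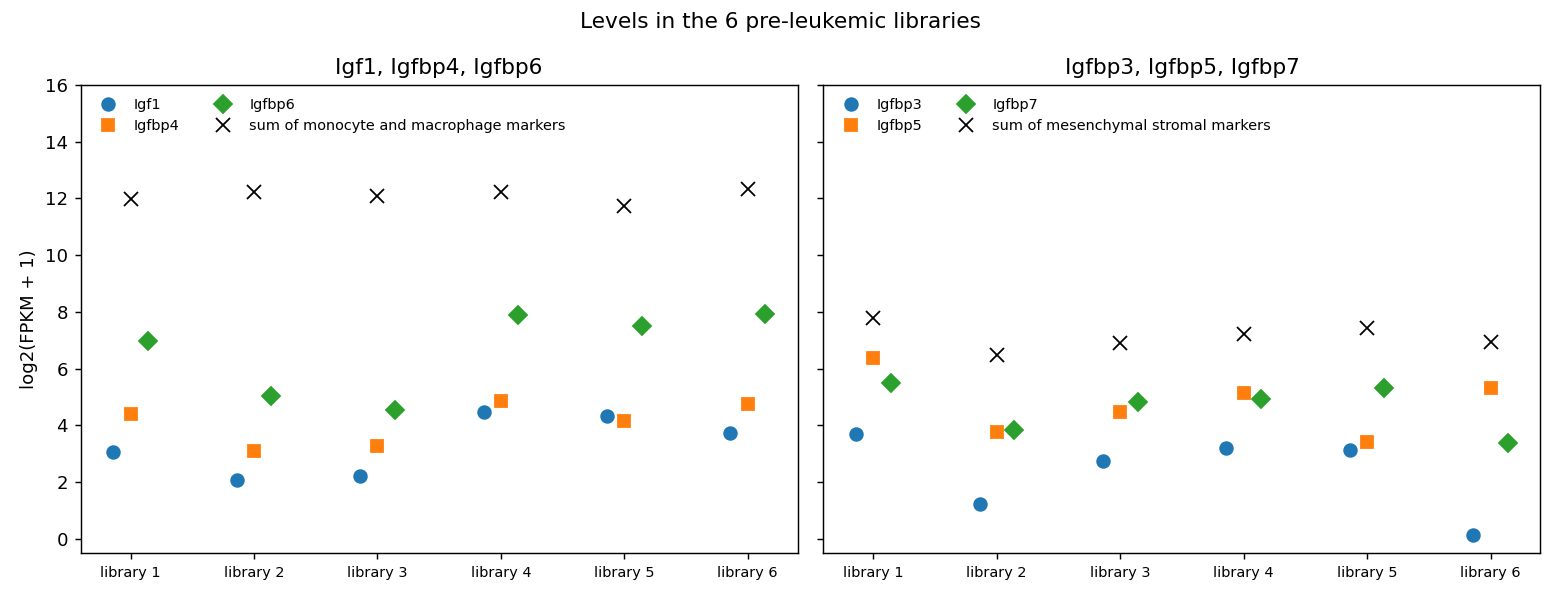
Levels as log2(FPKM + 1) in pre-leukemic libraries 1 to 6, with Igf1, Igfbp4 and Igfbp6 and the summed monocyte and macrophage markers at left, and Igfbp3, Igfbp5 and Igfbp7 and the summed mesenchymal stromal markers at right. Libraries 2 and 3 are lowest for the genes at left, library 1 is highest for those at right, and Igfbp3 is near 0 in library 6, at 0.0996 FPKM. Libraries 2 and 3 are also the lowest in the summed mesenchymal stromal markers, and the pairing of genes with markers was not tested.

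The wider IGF pathway was followed in a list of 32 other genes, all in the table, of which 24 passed the filter. In pre-leukemic against healthy samples 12 were called lower, 0 higher and 12 neither, with a median change of -1.66. Of all 13118 genes tested, 13.1% were called lower and 14.2% higher. Htra1 and Htra3, secreted proteases of the HtrA family, fell from 535.5 ± 31.2 and 273.6 ± 26.1 to 11.5 ± 6.09 and 29.3 ± 16.1 FPKM (SD, n = 2 and 6; changes -5.57 and -3.40). Grb10, an adaptor that restrains receptor signalling, fell from 26.1 ± 4.07 to 1.99 ± 0.921 FPKM (change -3.23 ± 0.46), and Socs3, an inhibitor of cytokine signalling, from 319.9 ± 22.1 to 30.3 ± 8.77 (change -3.40 ± 0.35). Igf2r, which clears IGF2 from the cell surface, fell from 29.9 ± 7.10 to 2.44 ± 1.16 FPKM (change -3.21 ± 0.53). Igf2 fell as well (change -6.89 ± 0.71, limma adjusted p = 8.99e-06). The adjusted p of the other 5 named genes ran from 2.36e-06 for Htra1 to 0.000431 for Igf2r.

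Recovered against pre-leukemic samples had 8 genes of that list higher, 0 lower and 16 neither, with a median change of 0.857. Over all genes tested, 14.8% were called higher and 25.1% lower. Grb10 rose to 63.9 ± 11.4 FPKM (change 4.48 ± 0.37, limma adjusted p = 4.72e-07) and Htra1 to 488.6 ± 153 (change 5.38 ± 0.39, limma adjusted p = 1.48e-07). Htra3, Socs3, Igf2r and Igf2 rose with changes of 3.53, 2.54, 3.07 and 6.58. Recovered against healthy samples had 1 gene lower, Stc2 (change -2.51 ± 0.41, limma adjusted p = 0.00537), a secreted glycoprotein that inhibits the IGFBP protease PAPP-A, with 0 higher and 23 neither. Over all genes tested, 1.99% were called lower and 0.518% higher in that comparison. At an unadjusted p under 0.05 limma had 2 of the list higher there, Grb10 and Irs1, and 5 lower. The share of all genes at that unadjusted p was not counted. Pappa itself, the protease that cuts IGFBP4, was too low to pass the filter, as was Igfals, the partner of IGFBP3 in serum, and Igfbp1 was listed at 0 in all 13 libraries.

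For each member the genes with the most similar pattern were found over 12 samples and 11810 genes, by the root mean square difference of centred log2(FPKM + 1), where 0 means an identical pattern. The samples share the group differences above, and the values describe these 12 samples alone. Igfbp4 was closest to Col15a1 (0.362), Slc39a1 (0.379) and Slc7a2 (0.463). The mean of Slc39a1 was 635 ± 106 FPKM (SD, n = 4) in recovered and 307 ± 33.0 (SD, n = 2) in healthy samples, with no test read here. Igfbp6 was closest to Col4a2 (0.386), Nov (0.398) and Htra3 (0.451), and Igfbp7 to Tm4sf1 (0.439), Apod (0.544) and Syn3 (0.555). Igfbp5 was closest to Lpar1 (0.496), Errfi1 (0.552) and Tgfbi (0.579), and Igfbp3 to Cebpd (0.551), Gas1 (0.556) and Fxyd1 (0.578). The genes nearest to Igf1 lay farther off, Chst14 at 0.742, Gpr153 at 0.790 and Gpr133 at 0.832, with Igfbp4 at 1.16. Chst14, Gpr153 and Gpr133 had, like Igf1, their highest value of any library in recovered 3, at 112.4, 78.1 and 59.5 FPKM. Their likeness to Igf1 without that library was not measured. The genes nearest to Igf1r, which hardly varied on this scale, were Dynlt3 (0.329), Zfp60 (0.331) and Heatr6 (0.343). Among pairs of members, Igfbp4 and Igfbp5 differed by 0.765 and Igfbp3 and Igfbp7 by 0.818. Igfbp2 was closest to Gng8 (0.490), Cdc42bpa (0.582) and Plekha6 (0.585). Cdc42bpa, like Igfbp2, had its highest mean in healthy samples, 14.7 ± 3.74 FPKM (SD, n = 2), its lowest in pre-leukemic ones, 0.227 ± 0.216 (SD, n = 6), and a mean of 4.78 ± 1.87 (SD, n = 4) in recovered ones.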

How the data were processed

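The members and gene lists were chosen with earlier results of these data known. The authors deposited FPKM values for 13 libraries, made from polyadenylated RNA with Nextera XT libraries per the labels' protocols, using bcl2fastq, TopHat, Cufflinks 2.2.1 and Cuffnorm with mm10, per the submitters' processing notes. The sources used here do not name the gene annotation or Cuffnorm's library-size method, which can shift a whole library when immunoglobulin genes dominate it.

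Healthy 1 and 3 were averaged. Depth was estimated from steps between low values (tolerance 0.06 on the log2 scale) of 5240 genes whose only transcript is 800 bp or longer, and covers counting error only. log2(FPKM + 1) was fitted with limma 3.58.1 (lmFit, eBayes with trend; R 4.3.3), all 3 groups in 1 fit with 9 residual degrees of freedom, for the 13118 genes that reached 1 FPKM in 3 or more libraries. The p-values were adjusted over all of these (Benjamini-Hochberg), with calls under 0.05. Shares were compared by exact permutation tests. Named pathway genes are Igf2 and the 6 with the smallest p per comparison. Pappa, Igfals and Igfbp1 were added after their values were seen. The 3 genes most like each member are named. The steps were tested on simulated data. Summaries and plots used Python 3.11.15, pandas 2.3.3, scipy 1.17.1 and matplotlib 3.10.9. Alternatives are given at the end.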

Additional observations from a re-analysis of the deposited data

Results flagged for a closer look

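Pre-leukemic 6 stood far from the other 5 pre-leukemic libraries in the ratio of Igfbp4 to Igfbp7. The ratio was 2.762 there and 0.320 to 0.947 in the others, so its gap was 0.743 of the group's whole range, above the limit of 0.625 for 6 samples. In this library Igfbp7 was at 9.36 FPKM, the lowest of the group, and Igfbp4 at 25.8. It was the only one of 34 sets of values looked at, and chance flags about 1 in 20.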

How the results depend on the processing

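In every alternative that tested it, each Igfbp gene kept its call in pre-leukemic against healthy samples (highest adjusted p 0.0312, Igfbp6 without healthy 2), and Igf1 and the 6 Igfbp genes kept theirs in recovered against pre-leukemic samples (highest 0.0356, Igf1 without recovered 4). At a mean of at least 5 FPKM Igfbp2 and Igf1r were not tested, which left 5 members called lower and 6 called higher in these comparisons. Without healthy 2 the spread comes from the other groups alone, since 1 healthy sample remains. Of the single-member results, 503 kept direction and side of the threshold, 13 turned sign, 2 became called and 4 lost the call. Genes called in pre-leukemic against healthy samples ran from 1716 (without healthy 2) to 4112 leaving out 1 library. In recovered against healthy samples they were 211 under quantile normalization, 114 at a mean of at least 5 FPKM, 103 with only the groups compared, 767 with healthy 1 and 3 as separate libraries, and 82 (without healthy 2) to 682 (without recovered 1) leaving out 1 library. Members called higher there were 1 with separate healthy libraries, and members called lower were 0 under quantile normalization, a pseudocount of 0.1, a mean of at least 5 FPKM or only the groups compared, and 0 to 1 leaving out 1 library. Igf1r turned sign in pre-leukemic against healthy samples under quantile normalization (-0.006998), the TPM scale (-0.398) and separate healthy libraries (-0.0734), with -0.507 to 0.270 leaving out 1 library. In recovered against pre-leukemic samples it was 0.471 and 0.267 under the first 2, with -0.416 to 0.0004017 leaving out 1 library, and in recovered against healthy samples 0.464 under quantile normalization and 0.198 with a pseudocount of 0.1, with -0.694 to 0.121 leaving out 1 library. Igfbp3 in recovered against healthy samples ran from -0.254 to 0.0358 leaving out 1 library, and from -0.408 over all alternatives. The cause of these changes was not tested. With the replicate number as a block, 3700, 4527 and 303 genes were called in the 3 comparisons with the same counts of members. For the shares the block needed limma on the 13 separate libraries in place of the permutation test, and 1 then passed, Igfbp4 in recovered against healthy samples (difference 7.39 percentage points, adjusted p = 0.0451), so the effect of the block cannot be told apart from that of the test. The numbers did not pair the samples (10 same-numbered pairs, correlations -0.0194 to 0.0337). Depth may limit Igf1r in all groups and Igfbp2 in pre-leukemic and recovered libraries, where values lie near those that a few reads give on 1 kb. The reads at the transcript lengths of these genes were not estimated, and a longer transcript needs more reads for the same FPKM.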
